A study of Mus musculus with 19 samples.

Results

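The genes followed are channels and pump subunits that set the electrical behavior of the muscle fiber membrane: the chloride channel Clcn1, the sodium channel Scn4a, the potassium channels Kcnj2, Kcnj11 and Kcnn3, and the sodium pump subunits Atp1b1 and Atp1b2. They were chosen by name, as genes related to myotonia, to denervation or to the sodium-potassium pump, with earlier results of these data known. Counts of members called, set beside the share of all probes, are therefore descriptions. All 7 are on the array, among 30214 genes by symbol. They are read by 9 of 39429 probes, with 2 probes each for Kcnj11 and Kcnn3 and 1 for each other gene. All 9 were among the 32026 probes tested, which read 24741 genes, and 8 of the 9 were above background on all 19 arrays.

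The arrays measured RNA of quadriceps muscle from male C57Bl6J mice killed at 180 days of age. AR113Q mice carry a knocked-in allele with an expanded CAG repeat and model spinal and bulbar muscular atrophy (SBMA), a disease of motor neurons and muscle. Controls (CTR) were congenic wild-type mice. Each genotype received the normal diet (NCD) or, from 40 days of age, the high-fat diet (HFD), and 19 arrays were made: for CTR mice 5 on the NCD and 4 on the HFD, for AR113Q mice 5 on each diet. Whether each sample is RNA of a single mouse is not stated, so n counts samples, and p-values measure the spread between samples.

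A skeletal muscle fiber fires when sodium enters through Scn4a, the voltage-gated sodium channel of adult muscle. The chloride conductance of Clcn1 steadies the membrane and ends repetitive firing, and loss of Clcn1 function causes myotonia, a delayed relaxation after contraction. Inwardly rectifying potassium channels hold the resting potential, ATP-sensitive channels couple it to metabolism, and the sodium pump restores both ions across the sarcolemma and the transverse tubules. Denervated fibers are known to regain immature channels, among them the small-conductance calcium-activated channel Kcnn3.

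All levels are log2 signals with the array's 75th percentile set to 0. Levels of different probes are not compared as amounts of RNA, and the brightest probe named for a list is only the largest term of its sum. Per array, 67.1% (CTR-HFD replicate 4) to 80.1% (CTR-NCD replicate 5) of probes were well above background, and the number of arrays limits the precision. The arrays lay on 5 slides. Replicate n of each group was on slide n, except that CTR-HFD replicate 4 was on slide 5, so slide 4 held no CTR-HFD array.

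The tissue label was checked against 10 skeletal muscle markers, all 10 tested and above background on every array, with that of alpha-actin Acta1 the brightest probe. Their summed log2 level was 11.31, 11.23, 11.21, 11.15 and 11.39 in CTR-NCD replicates 1 to 5 and 10.94, 10.90, 10.80, 10.96 and 10.81 in AR113Q-NCD replicates 1 to 5. It was 11.22, 11.38, 11.25 and 11.24 in CTR-HFD replicates 1 to 4 and 10.74, 10.90, 10.71, 10.84 and 10.88 in AR113Q-HFD replicates 1 to 5. Every array is thus rich in muscle transcripts, and on both diets every AR113Q array sits below every CTR array on this scale. The sign turns, though, with quantile normalization for Acta1 on the HFD and for Ttn on both diets.

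The first comparison asks how AR113Q muscle differed from wild-type muscle on the NCD. The messengers of the chloride channel, the sodium channel and the ATP-sensitive potassium channel pore were lower in AR113Q-NCD muscle than in its wild-type control, while those of Kcnj2, Kcnn3 and both pump beta subunits did not pass the test. In limma, 4 of 9 member probes (3 of 7 genes) had an adjusted p under 0.05, all 4 lower, against 17.6% of all probes tested in either direction and 9.28% in the lower direction. Of all probes called, 2971 were lower and 2654 higher, a balance that turns with quantile normalization (2698 and 3134), median centring (1051 and 1337), normexp correction (404 and 414) and the authors' values (2085 and 2440). The same 4 member probes were the ones whose groups did not overlap, as for 15.6% of all probes. The median difference was -0.02 over the 9 member probes, turned to 0.04 by median centring and 0.03 in the authors' values. Over all probes it was -0.05, turned to 0.01 by quantile normalization and in the authors' values and to 0.0045 by median centring. Normexp correction gave -0.45 over the member probes and -0.55 over all probes. In bulk samples like these, fewer cells of a type and less RNA per cell cannot be told apart.

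Clcn1, the main chloride channel of the fiber membrane, is read by a probe at chr6:42264558-42264617 on the plus strand of mm9. Its level was 1.60, 1.58, 1.58, 1.78 and 1.90 in CTR-NCD replicates 1 to 5. It was 1.14, 1.16, 0.996, 1.01 and 1.25 in AR113Q-NCD replicates 1 to 5. Every AR113Q-NCD array was below every CTR-NCD array, and the lowest CTR arrays stood well clear of the highest AR113Q array. Clcn1 fell by 0.58 (SE 0.12, 95% interval -0.82 to -0.33), a fold of 0.669, with an adjusted p of 0.00205. Within slides it was lower in 5 of 5 pairs (differences from -0.77 to -0.42), and with slide as a block the difference was -0.58 (adjusted p = 0.00343). Median centring gave -0.52 (adjusted p = 0.0559) and normexp background correction -0.32 (adjusted p = 0.145), the latter under a scaling that puts the median of all probes at -0.55.

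Scn4a, the pore of the adult muscle sodium channel, is read at chr11:106180635-106180694 on the minus strand of mm9. Its level was 1.82, 1.61, 1.80, 1.66 and 1.80 in CTR-NCD replicates 1 to 5. In AR113Q-NCD replicates 1 to 5 it was 1.34, 1.30, 1.26, 0.91 and 1.24. Here too the groups do not overlap, and AR113Q-NCD replicate 4 lies apart below its group. Scn4a fell by 0.53 (SE 0.10, 95% interval -0.74 to -0.31), a fold of 0.694, with an adjusted p of 0.00175. It was lower in 5 of 5 slides (-0.75 to -0.31), and the value with slide as a block was -0.53 (adjusted p = 0.00412). The call was lost with median centring (-0.47, adjusted p = 0.0656) and with normexp correction (-0.27, adjusted p = 0.188).

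Because Clcn1 and Scn4a fell together, their promoters are shown, from 250 bases before to 50 after a start of the gene, as given by RefSeq for GRCm38.p6. That start lies 1834 bases inside the RefSeq gene record for Clcn1 and 16169 bases inside it for Scn4a. The Clcn1 promoter is at chr6:42286435-42286734 on the plus strand and the Scn4a promoter at chr11:106349341-106349640 on the minus strand, each written 5′ to 3′ along its gene. Capitals mark motif matches.
Clcn1 promoter: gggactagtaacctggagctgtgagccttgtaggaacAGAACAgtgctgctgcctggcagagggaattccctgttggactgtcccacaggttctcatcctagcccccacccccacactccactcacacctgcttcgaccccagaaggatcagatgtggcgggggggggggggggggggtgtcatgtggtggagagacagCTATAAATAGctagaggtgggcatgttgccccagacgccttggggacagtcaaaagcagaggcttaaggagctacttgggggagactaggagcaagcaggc
Scn4a promoter: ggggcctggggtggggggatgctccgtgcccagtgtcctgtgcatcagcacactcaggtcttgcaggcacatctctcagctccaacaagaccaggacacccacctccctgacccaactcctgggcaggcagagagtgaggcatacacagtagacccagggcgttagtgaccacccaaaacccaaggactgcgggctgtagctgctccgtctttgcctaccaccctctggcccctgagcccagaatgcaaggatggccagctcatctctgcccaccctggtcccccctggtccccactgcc
The motifs searched on both strands were CAGCTG, an E-box bound by myogenic factors, the M-CAT motif with letters CATTCC, the steroid receptor half-site AGAACA, the Sp1 motif with letters GGGCGG, the NFAT core with letters GGAAA, and the MEF2 motif. The Clcn1 window holds AGAACA at -213 to -208 from the start and a MEF2 match at -51 to -42, and the Scn4a window holds none of the 6 motifs. Over all 32851 promoters, 18.97% hold AGAACA and 3.187% hold the MEF2 motif (20.92% and 3.803% of the 19827 whose start is the edge of the gene record, as it is for Kcnn3, Kcnj2 and Atp1b1). The shares for the others are 16.3% for CAGCTG, 14.66% for CATTCC, 35.66% (29.51% at the edge of the record) for GGGCGG and 61.34% for GGAAA.

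Of the 7 genes, 5 have a promoter entry (Clcn1, Scn4a, Kcnn3, Kcnj2 and Atp1b1), and Kcnj11 and Atp1b2 have none. Kcnj2 holds CAGCTG at -206 to -201 and GGGCGG at -102 to -97 and -51 to -46. Atp1b1 holds GGGCGG at -205 to -200 and -124 to -119, and Kcnn3 holds none of the motifs. GC content was 59.0% for Clcn1, 63.0% for Scn4a, 57.7% for Kcnn3, 66.7% for Kcnj2 and 71.0% for Atp1b1. All 5 are above the median of all promoters, 52.7%, and 3 of them are above the upper quartile, 61.7%. A match is a description of letters in the window, not evidence of a bound site.

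Kcnj11 encodes Kir6.2, the pore of the ATP-sensitive potassium channel, and its 2 probes lie at chr7:53353119-53353178 and chr7:53354095-53354154 on the minus strand of mm9. The first probe gave 2.09, 2.11, 2.25, 1.87 and 2.39 in CTR-NCD replicates 1 to 5 and 1.36, 1.48, 1.25, 1.06 and 1.35 in AR113Q-NCD replicates 1 to 5. The second gave -0.91, -0.85, -0.66, -1.12 and -0.70 in CTR-NCD and -1.67, -1.46, -1.76, -2.04 and -1.84 in AR113Q-NCD replicates 1 to 5. On both probes the lowest array of each genotype is replicate 4, and the genotypes are separated with no overlap. Kcnj11 fell by 0.84 on the first probe (SE 0.11, 95% interval -1.07 to -0.61, adjusted p = 5.41e-05), a fold of 0.558. On the second it fell by 0.90 (SE 0.12, 95% interval -1.16 to -0.64, adjusted p = 7.44e-05), a fold of 0.535. Among all probes tested, 4.54% and 3.70% had a larger absolute difference. It was lower in 5 of 5 slides on each probe (-1.04 to -0.63 and -1.14 to -0.60). With slide as a block the values were -0.84 (adjusted p = 0.000136) and -0.90 (adjusted p = 0.000188). Under normexp correction they were -0.59 (adjusted p = 0.0689) and -0.80 (adjusted p = 0.00301).

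The sequence of the second Kcnj11 probe is shown because Kcnj11 was the member with the largest called difference and because the array reads a fixed stretch of 60 bases of it, so it measures messenger carrying that stretch. It has no capitals.
Kcnj11 array probe: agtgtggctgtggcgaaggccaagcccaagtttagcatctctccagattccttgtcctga

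Kcnj2 encodes Kir2.1, an inward rectifier that holds the resting potential, and is read at chr11:110936203-110936262 on the plus strand. Its level was -2.32, -2.36, -2.11, -2.34 and -2.32 in CTR-NCD replicates 1 to 5 and -2.34, -2.40, -2.03, -2.25 and -2.54 in AR113Q-NCD replicates 1 to 5. The groups overlap, with 1 AR113Q array above and 2 below all CTR arrays, and replicate 3 is the highest array of each. The difference was -0.02 (95% interval -0.27 to 0.23, adjusted p = 0.935), with the sign turned to 0.04 by median centring and 0.03 in the authors' values, and the value moved to -0.45 by normexp correction.

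Kcnn3, the calcium-activated channel SK3 known from denervated fibers, has a first probe at chr3:89476303-89476362 and a second whose 60 bases lie across chr3:89465136-89466660, both on the plus strand. The first gave -3.97, -4.33, -3.74, -4.51 and -4.49 in CTR-NCD and -3.85, -3.97, -4.06, -3.94 and -3.96 in AR113Q-NCD replicates 1 to 5. The second gave -5.60, -6.34, -5.86, -6.02 and -5.65 in CTR-NCD and -5.94, -5.64, -5.75, -5.80 and -5.89 in AR113Q-NCD replicates 1 to 5. AR113Q arrays lie within the range of the CTR arrays on both probes. The differences were 0.25 (95% interval -0.12 to 0.62, adjusted p = 0.394) and 0.09 (95% interval -0.40 to 0.58, adjusted p = 0.852), and both turned negative (-0.82 and -1.15) under normexp correction. The second value also turned negative without CTR-NCD replicate 2, and quantile normalization gave 0.24 for it. The second probe was above background on 16 of 19 arrays, 4 of 5 in CTR-NCD and 2 of 4 in CTR-HFD. Its sequence is shown because its bases are spread over a longer genomic span, and it has no capitals.
Kcnn3 array probe: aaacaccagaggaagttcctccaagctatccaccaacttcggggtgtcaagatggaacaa

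The sodium pump pairs a catalytic alpha subunit with a beta subunit, which carries it to the membrane. Atp1b1, the widely expressed beta subunit, is read at chr1:166368263-166368322 on the minus strand, and its level was 4.54, 4.16, 4.44, 2.76 and 2.90 in CTR-NCD replicates 1 to 5 and 4.03, 4.46, 4.46, 4.39 and 4.04 in AR113Q-NCD replicates 1 to 5. The CTR-NCD arrays fall apart into 3 high and 2 low ones, and all 5 AR113Q-NCD arrays lie far above the low ones. The difference was 0.51 (95% interval -0.36 to 1.39, adjusted p = 0.473). Without CTR-NCD replicate 4 it was 0.26.

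Atp1b2, the other beta subunit followed, is read at chr11:69413253-69413312 on the minus strand. It stood at 1.93, 3.99, 3.72, 3.77 and 4.21 in CTR-NCD replicates 1 to 5 and at 3.95, 3.78, 3.70, 3.94 and 3.97 in AR113Q-NCD replicates 1 to 5. CTR-NCD replicate 1 is far below every other array, and the rest of the groups overlap. The difference of 0.34 (95% interval -0.31 to 0.998, adjusted p = 0.535) became -0.06 without that array.

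**Figure D1:**
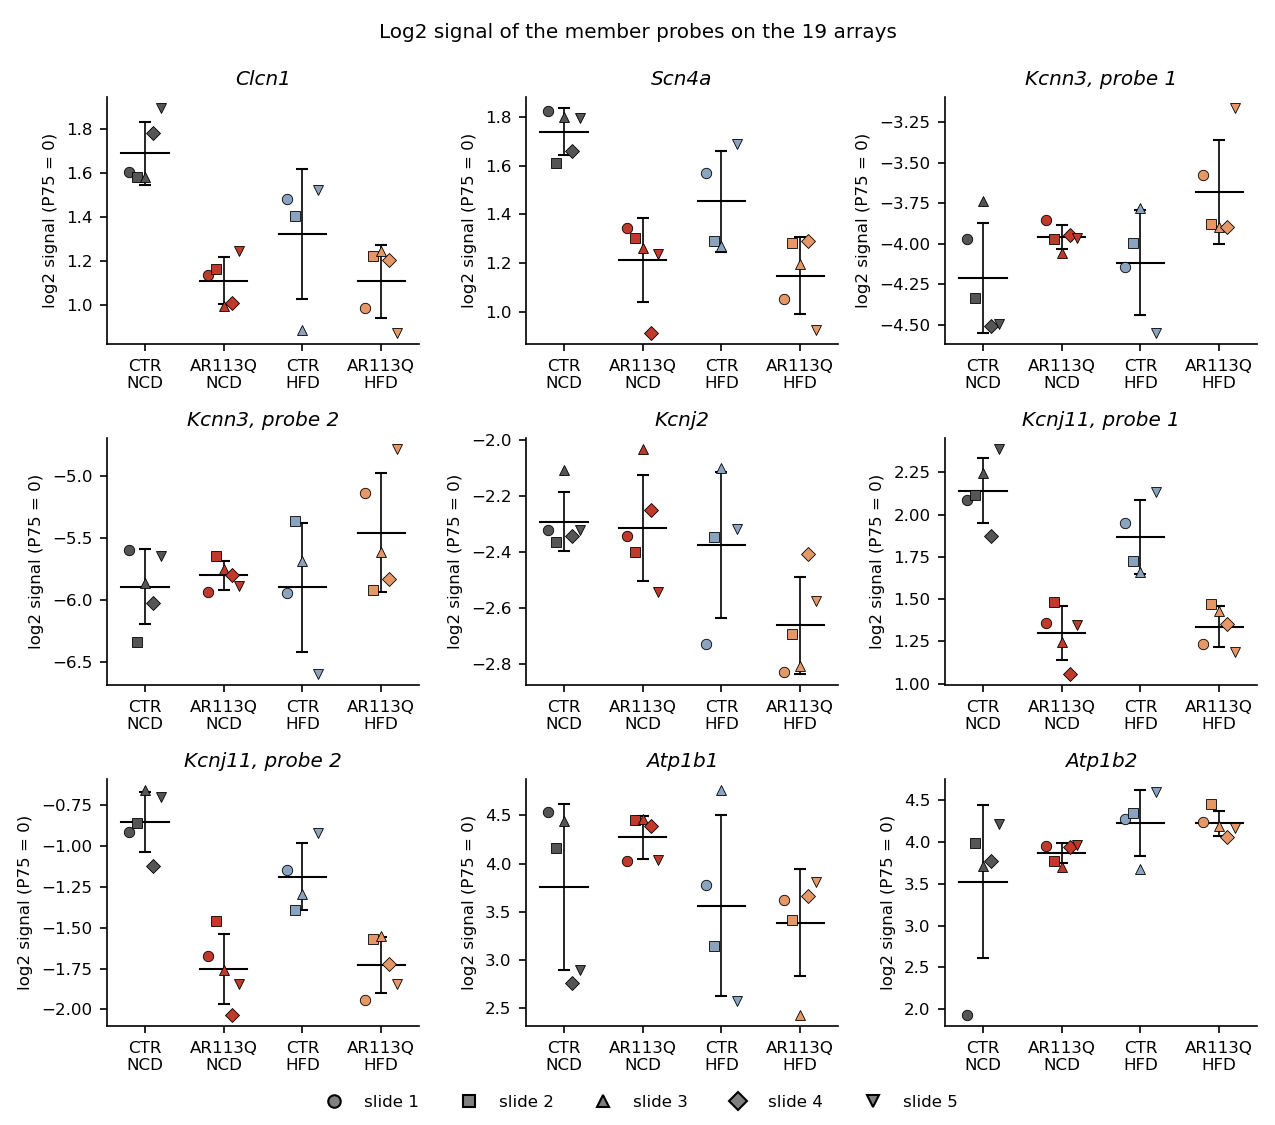
Log2 signal relative to the 75th percentile of each array (vertical axes) of the 9 member probes by group (horizontal axes), 1 point for each of 19 arrays with a marker for its slide, and lines for the mean and SD of the group. Both Kcnj11 probes separate the genotypes on each diet, Clcn1 and Scn4a separate them on the NCD, and Atp1b1 spreads from 2.76 to 4.54 within CTR-NCD.

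The second comparison put the same question to mice on the HFD, with arrays that the first does not use. Only Kcnj11 passed the test: it was lower on both probes, which makes 2 of 9 member probes, against 17.9% of all probes in either direction and 9.93% in the lower direction. The 3179 lower and 2562 higher probes became 2512 and 3287 with quantile normalization, 958 and 1496 with median centring, 551 and 382 with normexp correction and 1890 and 2509 in the authors' values. The 2 Kcnj11 probes were also the only member probes without overlap between groups, a state found for 15.7% of all probes. The median difference was -0.22 over the member probes and -0.07 over all probes, the latter turned to 0.00 by quantile normalization and in the authors' values.

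The first Kcnj11 probe gave 1.95, 1.73, 1.66 and 2.13 in CTR-HFD replicates 1 to 4 and 1.24, 1.47, 1.43, 1.36 and 1.19 in AR113Q-HFD replicates 1 to 5. The second gave -1.15, -1.39, -1.29 and -0.92 in CTR-HFD and -1.95, -1.57, -1.55, -1.72 and -1.85 in AR113Q-HFD. CTR-HFD replicate 4 was the highest array on both probes. Kcnj11 fell by 0.53 (SE 0.12, 95% interval -0.78 to -0.28, adjusted p = 0.004) and by 0.54 (SE 0.13, 95% interval -0.81 to -0.26, adjusted p = 0.00748), folds of 0.692 and 0.688. It was lower in 4 of 4 slides on each probe (-0.94 to -0.23 and -0.93 to -0.18), and with slide as a block the values were -0.49 (adjusted p = 0.00654) and -0.49 (adjusted p = 0.0123). Median centring ended both calls (-0.47 and -0.47, adjusted p = 0.137 and 0.156), as did normexp correction (-0.54 and -0.41, adjusted p = 0.139 and 0.155).

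Clcn1 on the HFD was at 1.48, 1.41, 0.89 and 1.52 in CTR-HFD replicates 1 to 4 and at 0.98, 1.22, 1.25, 1.20 and 0.87 in AR113Q-HFD replicates 1 to 5. The overlap comes from CTR-HFD replicate 3, which lies among the AR113Q arrays, while the other CTR arrays lie above all of them. The difference was -0.22 (95% interval -0.48 to 0.04, adjusted p = 0.267), lower in 3 of 4 slides (-0.65 to 0.36), and -0.23 (adjusted p = 0.216) with slide as a block. Without CTR-HFD replicate 3 it was -0.36 (adjusted p = 0.0185).

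Scn4a on the HFD was at 1.57, 1.29, 1.27 and 1.69 in CTR-HFD and at 1.05, 1.28, 1.19, 1.29 and 0.92 in AR113Q-HFD. CTR-HFD replicates 2 and 3 reach down to the highest AR113Q arrays. The difference was -0.31 (95% interval -0.54 to -0.07, adjusted p = 0.064), lower in 4 of 4 slides (-0.77 to -0.01), and -0.29 (adjusted p = 0.094) with slide as a block. It passed the test without CTR-HFD replicate 3 (-0.37, adjusted p = 0.0359), without AR113Q-NCD replicate 4 (-0.31, adjusted p = 0.0395) and with an intensity trend in the variance (adjusted p = 0.0444).

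**Figure D2:**
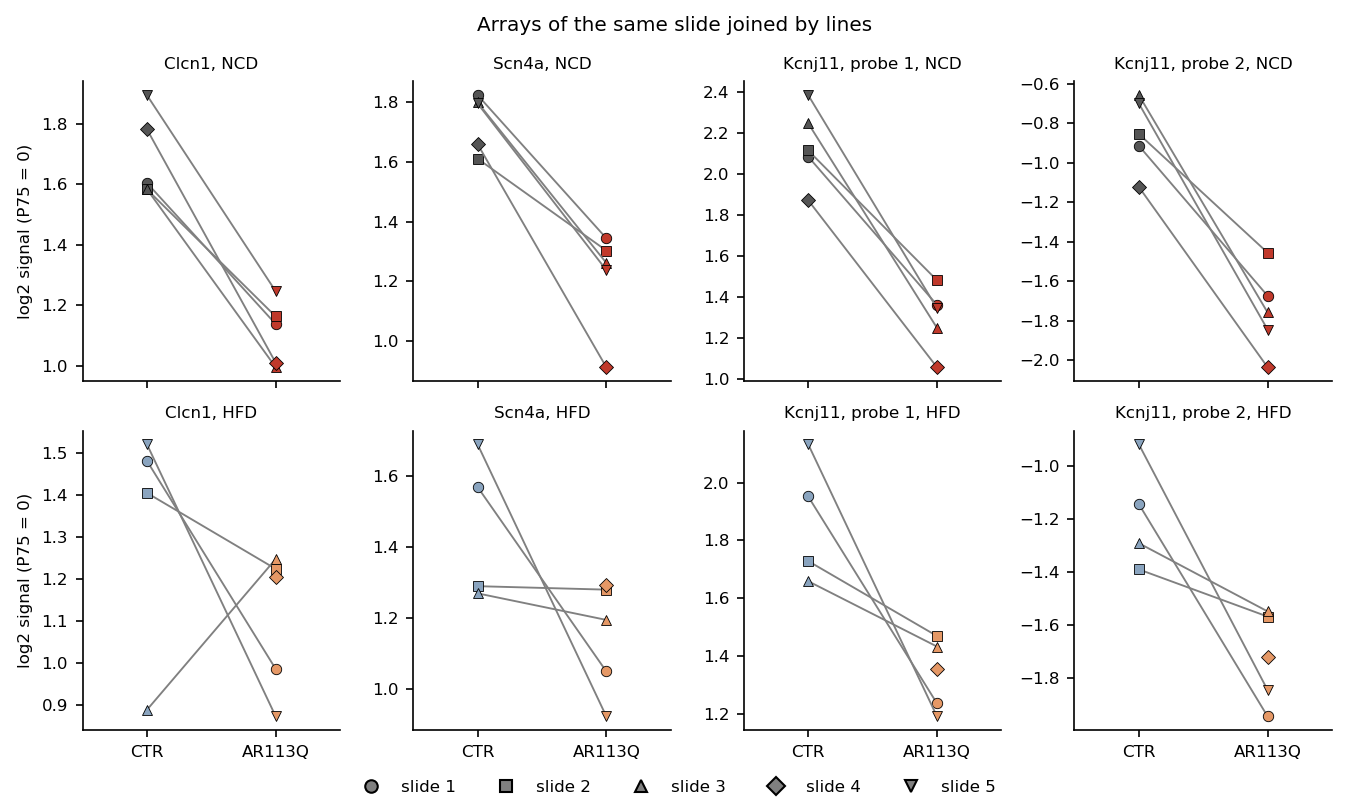
Log2 signal relative to the 75th percentile of the array (vertical axis, a scale for each panel) of Clcn1, Scn4a and both Kcnj11 probes in CTR and AR113Q arrays (horizontal axis), NCD above and HFD below, with a marker for each slide and a line joining arrays of the same slide. All lines run down but that of Clcn1 on slide 3 of the HFD panel, which joins 0.89 and 1.25, and slide 4 has no CTR-HFD array.

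Kcnj2 on the HFD was at -2.73, -2.35, -2.10 and -2.32 in CTR-HFD and at -2.83, -2.69, -2.80, -2.41 and -2.57 in AR113Q-HFD. All AR113Q-HFD arrays were below CTR-HFD replicates 2 to 4, and CTR-HFD replicate 1 lies among them. The difference was -0.29 (95% interval -0.55 to -0.03, adjusted p = 0.129), lower in 4 of 4 slides (-0.71 to -0.10), -0.31 (adjusted p = 0.0572) with slide as a block, and -0.41 (adjusted p = 0.0275) without CTR-HFD replicate 1. Normexp correction moved it to -0.16.

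For Kcnn3 the first probe gave -4.14, -3.99, -3.78 and -4.55 in CTR-HFD and -3.57, -3.88, -3.90, -3.90 and -3.17 in AR113Q-HFD. The second gave -5.94, -5.37, -5.69 and -6.60 in CTR-HFD and -5.14, -5.92, -5.61, -5.83 and -4.79 in AR113Q-HFD. AR113Q-HFD replicates 1 and 5 are the highest arrays on both probes, CTR-HFD replicate 4 is the lowest, and the rest overlap. Both differences are smaller without CTR-HFD replicate 4 and without AR113Q-HFD replicate 5. The differences of 0.43 (95% interval 0.04 to 0.82, adjusted p = 0.125) and 0.44 (95% interval -0.08 to 0.96, adjusted p = 0.258) did not pass the test, and normexp correction gave 0.26 and 0.09.

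Atp1b1 was at 3.78, 3.14, 4.76 and 2.57 in CTR-HFD and at 3.62, 3.41, 2.43, 3.67 and 3.81 in AR113Q-HFD. Atp1b2 was at 4.28, 4.35, 3.68 and 4.60 in CTR-HFD and at 4.24, 4.46, 4.19, 4.06 and 4.16 in AR113Q-HFD. CTR-HFD replicate 3 has the highest Atp1b1 and the lowest Atp1b2 of its group, CTR-HFD replicate 4 the reverse, and the genotypes overlap for both genes. The differences were -0.18 for Atp1b1 (95% interval -1.10 to 0.75, adjusted p = 0.842) and -0.00 for Atp1b2 (95% interval -0.70 to 0.69, adjusted p = 0.996). The Atp1b1 value turned to 0.22 without CTR-HFD replicate 3 and to 0.06 without AR113Q-HFD replicate 3 and was -0.51 without CTR-HFD replicate 4, and the Atp1b2 value to 0.12, 0.06 and 0.11 with quantile normalization, median centring and the authors' values.

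Clcn1 and Scn4a passed on the NCD and not on the HFD, and a difference between the diets was tested as the genotype by diet interaction. Of all probes, 0% passed in limma, and 4.65% had an unadjusted p under 0.05, among them 1 of 9 member probes, Clcn1. The interaction was 0.36 for Clcn1 (95% interval 0.00 to 0.72), 0.22 for Scn4a (-0.10 to 0.54), 0.31 and 0.36 for the Kcnj11 probes (-0.03 to 0.65 and -0.01 to 0.74), -0.27 for Kcnj2 (-0.63 to 0.09) and 0.18 and 0.35 for the Kcnn3 probes (-0.35 to 0.72 and -0.36 to 1.06), each with an adjusted p of 1. Normexp correction turned the sign for Scn4a (-0.03) and Kcnj2 (0.30), gave 0.13 for Clcn1 and 0.06 for the first Kcnj11 probe, and moved Kcnn3 to 1.08 and 1.24. Without CTR-HFD replicate 4 the Kcnn3 values were 0.04 and 0.12. For Atp1b1 the interaction was -0.69 (-1.96 to 0.58), -0.29 without CTR-HFD replicate 3 and -1.02 without CTR-HFD replicate 4. For Atp1b2 it was -0.35 (-1.30 to 0.61), and 0.05 without CTR-NCD replicate 1. The median was 0.22 over the member probes and -0.01 over all probes. The latter turned to 0.53 by normexp correction and to 0.002 by quantile normalization and in the authors' values.

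**Figure D3:**
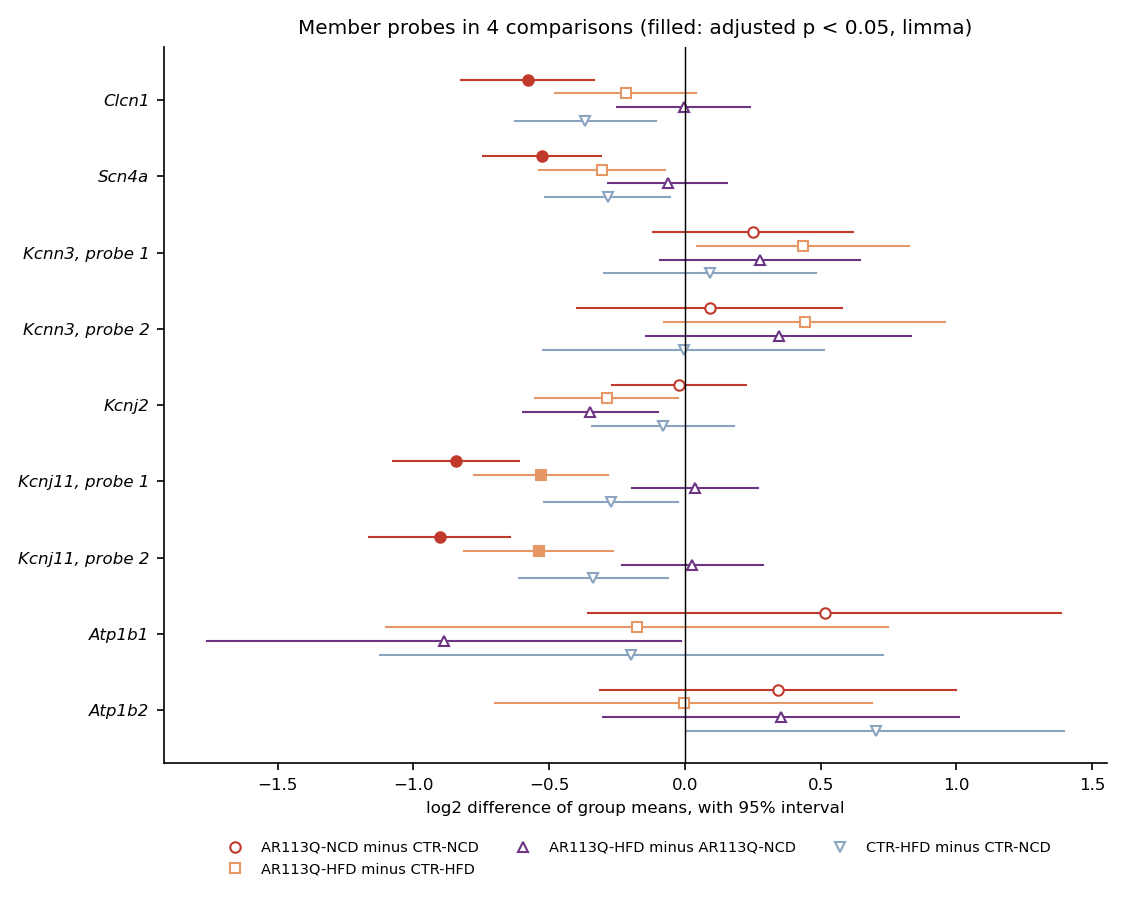
Log2 differences of group means (horizontal axis) with 95% intervals for the 9 member probes in 4 comparisons, filled where the adjusted p is under 0.05. Kcnj11 lies left of 0 in both genotype comparisons and near 0 for the diet in AR113Q mice, and the intervals of Atp1b1 and Atp1b2 are the widest. Under other scalings the sign turns for Kcnn3 and Kcnj2 on the NCD and for Atp1b2 on the HFD, for the diet in wild-type mice for Scn4a, the first Kcnj11 probe, Kcnn3 and Atp1b1, and for the diet in AR113Q mice for Clcn1 and the second probes of Kcnj11 and Kcnn3.

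The diet comparisons ask what the HFD did within each genotype, and they share arrays with the genotype comparisons. In wild-type muscle 0 of 9 member probes passed in limma, as did 0% of all probes. At an unadjusted p under 0.05 there were 5 of 9 member probes, against 8.66% of all probes: Clcn1, Scn4a and both Kcnj11 probes below 0 and Atp1b2 above 0. The median was -0.20 over the member probes and 0.01 over all probes, the latter turned to -0.64 by normexp correction.

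Every CTR-HFD array had less Clcn1 than every CTR-NCD array, the only member probe whose wild-type groups did not overlap, as for 2.73% of all probes. The difference was -0.37 (95% interval -0.63 to -0.11, adjusted p = 0.435), lower in 4 of 4 slides (-0.70 to -0.12), -0.36 (adjusted p = 0.249) with slide as a block, -0.22 without CTR-HFD replicate 3 and -0.13 with normexp correction. Scn4a differed by -0.28 (95% interval -0.52 to -0.05, adjusted p = 0.504) and Kcnj11 by -0.27 and -0.34 (adjusted p = 0.538 and 0.504), all lower in 4 of 4 slides. Normexp correction, which puts the median of all probes at -0.64 here, gave 0.01 for Scn4a and 0.01 for the first Kcnj11 probe. Atp1b2 differed by 0.70 (95% interval 0.01 to 1.40, adjusted p = 0.571), and by 0.30 without CTR-NCD replicate 1. Kcnj2 differed by -0.08, though higher in 3 of 4 slides, and the value turned to 0.04 without CTR-HFD replicate 1. Normexp correction gave -0.60 for Kcnj2 and moved the Kcnn3 values of 0.09 and -0.00 to -1.07 and -1.27. Atp1b1 differed by -0.20, with the sign turned by normexp correction (0.16) and without CTR-HFD replicate 4 (0.13), and by -0.60 without CTR-HFD replicate 3.

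In AR113Q muscle none of the 9 member probes passed in limma, against 0.025% of all probes, which is 8 probes. An unadjusted p under 0.05 was found for 2 of 9, Atp1b1 and Kcnj2, and for 6.73% of all probes. The median was 0.03 over the member probes, turned to -0.02 by normexp correction and -0.04 in the authors' values. Over all probes it was -0.00, turned to 0.03 by median centring, 0.003 by quantile normalization and 0.004 in the authors' values.

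Every AR113Q-HFD array had less Atp1b1 and more Atp1b2 than every AR113Q-NCD array, which makes 2 of 9 member probes without overlap, against 2.04% of all probes. Atp1b1 differed by -0.89 (SE 0.41, 95% interval -1.76 to -0.02, adjusted p = 0.738), lower in 5 of 5 slides (-2.03 to -0.23), and only 1.58% of all probes had a larger absolute difference. With slide as a block it was -0.89 (adjusted p = 0.503). Atp1b2 differed by 0.35 (95% interval -0.30 to 1.01, adjusted p = 0.951), higher in 5 of 5 slides (0.13 to 0.68), and the block gave 0.35 (adjusted p = 0.716). Kcnj2 differed by -0.35 (95% interval -0.60 to -0.10, adjusted p = 0.553), lower in 5 of 5 slides (-0.77 to -0.03), with groups that overlap. Clcn1 differed by -0.00 (-0.25 to 0.24), turned to 0.02 by median centring, Scn4a by -0.06 (-0.28 to 0.15), Kcnj11 by 0.04 and 0.03 (-0.20 to 0.27 and -0.23 to 0.29), the second turned to -0.04 by normexp correction, and Kcnn3 by 0.28 and 0.34 (-0.09 to 0.64 and -0.14 to 0.83), which normexp correction moved to 0.01 and -0.02. Both Kcnn3 values were smaller without AR113Q-HFD replicate 5, the highest array on both probes. The sign turned under 7 alternatives for Clcn1 and under 1 and 4 for the Kcnj11 probes.

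The levels of several members ran with the summed level of 14 slow fiber genes, all 14 tested and above background on every array, with that of myoglobin Mb the brightest probe. The summed slow fiber level was 8.90, 9.45, 9.06, 7.45 and 7.79 in CTR-NCD and 9.43, 9.70, 10.03, 9.44 and 9.24 in AR113Q-NCD replicates 1 to 5. It was 7.86, 7.68, 9.94 and 7.02 in CTR-HFD and 8.70, 7.84, 7.10, 8.56 and 9.15 in AR113Q-HFD. The CTR-NCD arrays with low Atp1b1, replicates 4 and 5, are those with a low slow fiber level, CTR-HFD replicate 3 is high in both, and every AR113Q-HFD array is below every AR113Q-NCD array in both.

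Over the 19 arrays the slow fiber level and Atp1b1 had r = 0.92 (Spearman 0.89), 0.92 for deviations from group means, 0.93 for deviations from slide means and 0.88 without the 2 arrays farthest from the median. With Tnni1, the slow troponin I, Atp1b1 had r = 0.83, and with Myh7 0.81. Mb weighs most in the sum where it is low: Mb alone was at 6.70 in CTR-HFD replicate 4, where the sum was 7.02. In AR113Q-NCD replicate 3 Mb was at 8.16 and the sum at 10.03. For Clcn1 the slow fiber level gave r = -0.54 (Spearman -0.55), -0.89 for deviations from group means and -0.51 for deviations from slide means, so that within a group the arrays with more slow fiber signal had less Clcn1. For Atp1b2 it gave -0.40 (Spearman -0.65, within groups -0.40), for Kcnn3 0.42 (Spearman 0.29, within groups 0.70) and for Kcnj2 0.46 (within groups 0.45). Scn4a had -0.31 (within groups -0.41) and Kcnj11 -0.37 (within groups -0.38). These are among 73 relations computed over the same arrays and slides, besides a search of all tested probes for similar genes, and are given as descriptions. The part of fiber composition in the differences between groups was not tested. 

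**Figure D4:**
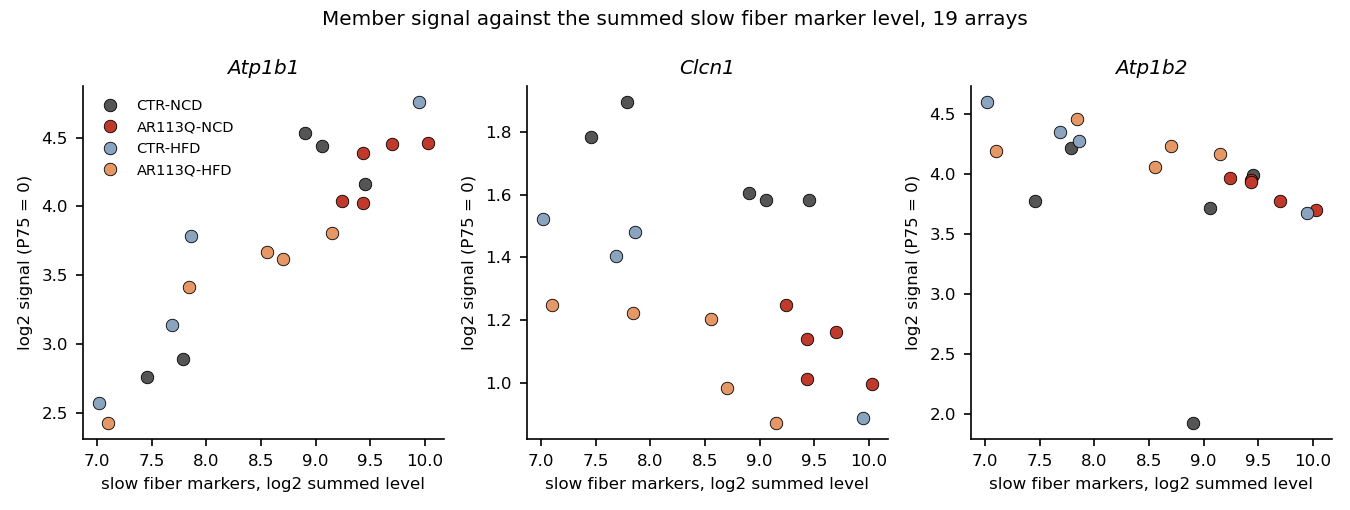
Log2 signal of Atp1b1, Clcn1 and Atp1b2 (vertical axes) against the log2 summed level of 14 slow fiber genes (horizontal axes), 1 point for each of 19 arrays, colored by group. Atp1b1 is higher where the slow fiber level is higher (r = 0.92), Clcn1 is lower within groups (r = -0.89 for deviations from group means), and CTR-NCD replicate 1 is the single low point of Atp1b2, at 1.93.

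Slow fiber genes themselves were variable: on the NCD 1 of 14 rose, the calsequestrin Casq2 (2.01), and the median difference was 1.83. On the HFD 1 of 14 rose, again Casq2 (adjusted p = 0.00611), and the median was 0.94. The share of all probes called higher was 8.29% on the NCD and 8% on the HFD. In AR113Q mice on the HFD against the NCD 0 of 14 passed (limma), and their median was -1.59. In wild-type mice 0 of 14 passed too, with a median of -0.83. Fast fiber genes differed with the genotype on both diets, as Kcnj11 did and, on the NCD, Clcn1 and Scn4a. On the NCD 12 of 14 fell (median -0.40), but the signs of Myl1, Myh4, Tpm1, Tnnt3 and Tnni2, whose probe is the brightest of the list, turn with quantile normalization. On the HFD 13 of 14 fell (median -0.50), with signs that turn in the authors' values for Myl1 and Tnni2. The share of all probes called lower was 9.28% on the NCD and 9.93% on the HFD. The summed fast fiber level was 12.51, 12.38, 12.37, 12.33 and 12.51 in CTR-NCD, 12.07, 12.03, 11.90, 12.17 and 11.92 in AR113Q-NCD, 12.33, 12.54, 12.52 and 12.37 in CTR-HFD and 11.84, 12.04, 11.84, 11.98 and 12.01 in AR113Q-HFD. On this scale every AR113Q array is below every CTR array of the same diet. The percentile subtracted ran higher in AR113Q arrays, and its part in the separation of these sums was not tested. Over the 19 arrays Myh4 had r = 0.52 with Clcn1, 0.57 with Scn4a and 0.71 with Kcnj11, but -0.27, -0.40 and -0.23 for deviations from group means. For Pvalb the values were 0.59, 0.64 and 0.76, and -0.18, -0.27 and -0.20 within groups. The part of fast fiber genes in the channel differences was not tested.

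Scn4a and Kcnj11 had r = 0.94 over the 19 arrays (Spearman 0.90, within groups 0.81, within slides 0.95, without the 2 farthest arrays 0.92). Scn4a and Clcn1 had 0.88 (within groups 0.62), and Kcnj11 and Clcn1 had 0.87 (within groups 0.62). The 3 channels therefore moved together between groups and, less closely for Clcn1, between arrays of a group. The Kcnj11 probes tracked each other at 0.99. The Kcnn3 probes did so at 0.76 (Spearman 0.47), which dropped to 0.48 without AR113Q-HFD replicate 5 and CTR-HFD replicate 4. Atp1b1 and Atp1b2 ran opposite to each other (r = -0.54, Spearman -0.77, -0.50 without the 2 farthest arrays).

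The genes whose probes were most like each member over the 19 arrays were named by Pearson r, as a description with no test. They were Stt3b, Strbp and Nutf2 for Clcn1 (each 0.96), AU040320, Ksr1 and Podxl2 for Scn4a (each 0.97), and Abhd16a, Podxl2 and Osbpl6 for Kcnj11 (each 0.96). Podxl2 is thus near the top for both Scn4a and Kcnj11. Atp1b1 was closest to Mb (0.96), itself on the slow fiber list, to the succinate dehydrogenase subunit Sdhb (0.95) and to 2310042D19Rik (0.95). Kcnj2 was closest to Ets1 (0.88), Kdr (0.87) and Cd93 (0.86), of which Kdr and Cd93 are known from endothelial cells. For Kcnn3 they were Gm10725 (0.91), Pcnxl2 (0.90) and Lrrn1 (0.88). Slc35b2 (0.94) and Commd7 (0.89), near the top for Atp1b2, rest on few arrays, with r of 0.63 and 0.62 without CTR-NCD replicate 1 and CTR-HFD replicate 4.

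Kcnj2 also followed the summed level of 9 endothelial markers, all 9 tested, with that of Flt1 the brightest probe: r = 0.72 (Spearman 0.68), 0.54 within groups, 0.75 within slides and 0.61 without the 2 farthest arrays. That level was 4.95, 4.94, 4.86, 4.99 and 4.93 in CTR-NCD, 4.86, 4.82, 5.01, 4.84 and 4.74 in AR113Q-NCD, 4.86, 4.73, 5.26 and 4.75 in CTR-HFD and 4.74, 4.55, 4.54, 4.81 and 4.72 in AR113Q-HFD. Its lowest arrays are AR113Q-HFD replicates 2 and 3, where Kcnj2 is also low. Of the 9 markers, 1 passed on the NCD (Vwf, lower) and 0 on the HFD, against 9.28% and 9.93% of all probes called lower. Counted by the probe of smallest p of each gene, 1 rose and 1 fell on the NCD, and 1 fell on the HFD. The shares called higher were 8.29% and 8%. Kdr differed by -0.30 on the HFD on the probe counted, and by -0.68 on the probe most like Kcnj2. The part of vessel content in the Kcnj2 values was not tested.

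The relatives of the members were counted by gene on their probe of highest mean signal. Of all probes, 9.28% were called lower and 8.29% higher on the NCD, and 9.93% lower and 8% higher on the HFD. Among inward rectifiers and subunits of ATP-sensitive channels, 3 of 15 tested genes fell on the NCD and 1 rose (median -0.15), and on the HFD 3 fell and 0 rose (median -0.32). Those that fell on both diets are Kcnj11, Kcnj12 and Abcc8. Kcnj12 (Kir2.2) was at 2.42, 2.42, 2.35, 2.49 and 2.98 in CTR-NCD and at 1.63, 1.64, 1.74, 1.78 and 1.86 in AR113Q-NCD, with no overlap. It fell by 0.80 on the NCD (adjusted p = 0.000828) and by 0.60 on the HFD (adjusted p = 0.0105). Abcc8, which encodes the sulfonylurea receptor SUR1, fell by 0.67 and 0.86 on its 2 probes on the NCD and by 0.57 and 0.65 on the HFD. Abcc9, the other sulfonylurea receptor, did not pass (-0.18 on the NCD, adjusted p = 0.439), nor did Kcnj8 (-0.02, adjusted p = 0.964). Kcnj13 rose by 0.40 on the NCD, with the sign turned by normexp correction.

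Of 10 chloride channel genes of the Clc family and their partners, Clcn1 fell and Clcn2 rose on the NCD (median 0.04). The shares over all probes were 9.28% lower and 8.29% higher there, and 9.93% lower and 8% higher on the HFD. Clcn2 rose by 0.44 (adjusted p = 0.00129), turned to -0.02 by normexp correction. On the HFD 3 rose, among them Clcn2 (0.27) and Clcn7 (0.30), and none fell (median -0.04). Of 6 genes tested that act on Clcn1 splicing or its regulation, 1 fell on the NCD (median 0.07): Mbnl1, the muscleblind splicing factor, by 0.68 (adjusted p = 0.00116). It fell by 0.81 on the HFD (adjusted p = 0.000406), where Celf2 fell (-0.41) and Celf1 rose (0.71). Splice forms of Clcn1 were not analysed here.

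Among 13 sodium channel genes tested, 3 fell on the NCD and 1 rose (median -0.10), and on the HFD 1 fell and 1 rose (median -0.10). Over all probes 9.28% were called lower and 8.29% higher on the NCD, and 9.93% and 8% on the HFD. With Scn4a fell Scn8a (-0.50, adjusted p = 0.0293) and the beta subunit Scn4b (-0.43, adjusted p = 0.00598), while Scn2b was 0.40 higher, with -0.11 under normexp correction. Scn4b was at 6.07, 6.15, 6.10, 6.07 and 6.35 in CTR-NCD and 5.57, 5.73, 5.67, 5.96 and 5.67 in AR113Q-NCD, with no overlap, and fell by 0.71 on the HFD (adjusted p = 0.000174). Scn3a rose there by 0.40 (adjusted p = 0.0277).

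Of 15 sodium pump genes, 1 rose and 1 fell on the NCD (median 0.07), and on the HFD 1 fell and none rose (median -0.00). These counts stand beside 8.29% of all probes higher and 9.28% lower on the NCD, and 8% and 9.93% on the HFD. Atp1a4, an alpha subunit known from testis, fell by 2.10 and 2.17 on its 2 probes on the NCD and by 1.97 on each on the HFD. The pump regulator Fxyd1 differed by 0.02 (adjusted p = 0.87), Atp1b3 by -0.18 (adjusted p = 0.153) and Atp1b4 by 0.83 (adjusted p = 0.0742).

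Of 28 voltage-gated potassium channel genes tested, 2 fell on the NCD and 1 rose (median -0.15), and on the HFD 5 fell and 1 rose (median -0.27). All probes gave 9.28% lower and 8.29% higher on the NCD, and 9.93% lower and 8% higher on the HFD. The beta subunit Kcnab1 was at -0.09, -0.28, -0.51, 0.46 and 0.85 in CTR-NCD and at -2.18, -2.29, -2.23, -1.86 and -2.09 in AR113Q-NCD, a wide gap. It fell by 2.22 on the NCD (adjusted p = 5.46e-05) and by 1.63 on the HFD (adjusted p = 0.00127). Kcna7 fell by 0.38 on the NCD and by 0.52 on the HFD on 1 probe, and its other probe did not pass (-0.16 and -0.25). Kcnc1 fell on all 3 probes on the HFD (-0.84, -0.90 and -1.18), and on the NCD 2 of them passed (-0.87 and -0.79) and 1 did not (-0.42, adjusted p = 0.0988). Kcnc4 passed on neither diet (-0.12 and 0.17).

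Of 8 calcium-activated potassium channel genes, to which Kcnn3 belongs, 1 rose on the NCD (median -0.06), Kcnn2 by 0.57 (adjusted p = 0.0133), and 0 passed on the HFD in limma (median 0.03). For this list and the next, the shares over all probes were 9.28% lower and 8.29% higher on the NCD. On the HFD they were 9.93% and 8%. Kcnn4 differed by -0.34 (adjusted p = 0.291) and Kcnma1 by 0.11, -0.16 and -0.17 on its 3 probes, and Kcnn1 was above background on 6 of 19 arrays only. Of 6 muscle calcium channel genes, 3 fell on the NCD and none rose (median -0.31): Cacng6 by 0.85, Cacng1 by 0.81 and Cacna1s, the voltage sensor of excitation-contraction coupling, by 0.40 (adjusted p = 0.00381). On the HFD Cacng6 and Cacna1s fell (-0.57 and -0.53, median -0.45). For either diet comparison and for the interaction, the count was 0 in every one of these 8 lists.

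**Figure D5:**
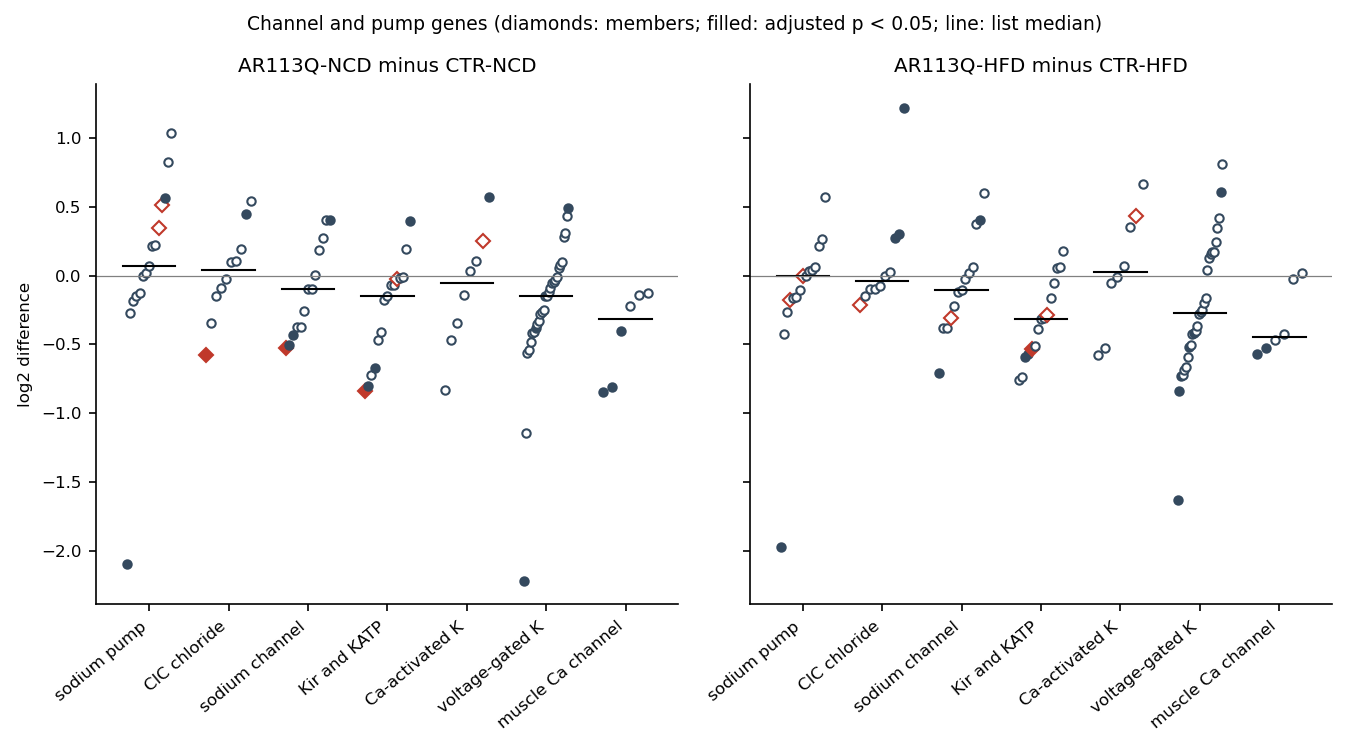
Log2 differences between AR113Q and CTR arrays (vertical axis) of the tested genes of 7 channel and pump lists (horizontal axis), NCD left and HFD right, with diamonds for members, filled symbols for an adjusted p under 0.05 and a line at the list median. The inward rectifier medians are -0.15 and -0.32 and the muscle calcium channel medians -0.31 and -0.45, beside -0.05 and -0.07 for all probes, and on the NCD Clcn2, Kcnj13, Scn2b and Kcnn3 turn sign under normexp correction.

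The denervation list, which holds Kcnn3, was higher in part. On the NCD 5 of 16 genes rose and none fell (median 0.36), and on the HFD 7 rose and 1 fell (median 0.57). The shares of all probes were 8.29% higher and 9.28% lower on the NCD, and 8% and 9.93% on the HFD. The gene that fell was Myh8 (-0.37, adjusted p = 0.00966 in limma). The acetylcholine receptor subunit Chrna1 rose by 1.51 and 1.99, Musk by 0.79 and 1.22, and Myog by 0.82 and 0.70. Runx1 rose by 1.25 on the NCD, turned to -0.06 by normexp correction. Kcnn3 and the fetal receptor subunit Chrng (-0.05, adjusted p = 0.938) passed in neither genotype comparison. The summed level of the list, led by Myh8, was 9.42, 9.27, 9.23, 9.19 and 9.35 in CTR-NCD, 9.14, 9.12, 8.95, 9.22 and 8.91 in AR113Q-NCD, 9.09, 9.45, 9.40 and 9.24 in CTR-HFD and 8.85, 9.09, 8.88, 8.99 and 9.08 in AR113Q-HFD. That sum, of which Myh8 is the largest term, is not higher in AR113Q arrays.

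Markers of other cells were counted in the same way, beside the same shares of all probes: 9.28% lower and 8.29% higher on the NCD, and 9.93% and 8% on the HFD. On the NCD 2 of 12 Schwann cell genes and 1 of 9 smooth muscle and pericyte genes rose, 1 of 5 tested satellite cell genes rose and 1 fell, 1 of 7 tested cardiac genes fell, and 0 of 8 white adipocyte, 0 of 8 macrophage and 0 of 6 red blood cell genes tested passed in limma. On the HFD 2 of 9 smooth muscle and pericyte genes and 2 of 5 satellite cell genes rose and none fell, and of the other lists named here 0 genes passed (limma). Those 2 smooth muscle and pericyte genes were Smtn and Des, and Des is also on the skeletal muscle list. No member relation to these lists was computed.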

How the data were processed

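The deposited spot intensities are, per the file headers, signals from which Agilent Feature Extraction 10.7.3.1 took the local background and trends within the array, with no scaling between arrays. The authors also deposited log2 values for 25944 probes, used here as an alternative. It holds 7 of the 9 member probes. Intensities were taken to log2 and outlier spots dropped. Averaging the 43020 spots by probe gave 39429 probes, and every array was scaled by subtracting its 75th percentile. Testing kept a probe if it was above background on at least 4 of 19 arrays.

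Groups follow the sample labels. All 4 were fitted together with limma 3.58.1 in R 4.3.3 (data.table, version 1.17.8) without blocking, with Benjamini-Hochberg adjustment over 32026 probes, and a probe was called at an adjusted p under 0.05. Python 3.11.15 with pandas 2.3.3 and matplotlib 3.10.9 drew the figures. The limma fit and its comparisons were tested on simulated data, and the loading and scaling steps were not. Tests are 2-sided, precision is limited by the number of arrays, and p-values measure the spread between samples.

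Genes were named by rule: every member probe, fixed relatives, at most 4 called genes of each channel list with the largest differences, the 3 genes most like each member, fiber and denervation genes, and the leading gene of each marker list. Some genes under this rule are not reported here by name, and the counts include them. Genes of a count named beside these were picked after their values were seen. Members and lists were chosen with earlier results of these data known. Marker levels are log2 of summed signals. Replicate numbers were checked for pairing: arrays of other groups with the same number had a median r of 0.237 between their deviations from group means and those of the same slide 0.273, against -0.0871 for other pairs, and 15 of 19 arrays were closest to one of their own slide. The labels state no pairing, so samples were not paired, and slide blocks were fitted as alternatives. Alternatives tried were median centring, quantile normalization, normexp correction (offset 50), the authors' values, stricter filters and thresholds, slide and replicate blocks, array weights, other variance estimates and each array left out. Control spots were left out. Protein, channel currents and splice forms were not analysed here.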

Additional observations from a re-analysis of the deposited data

Results flagged for a closer look

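Arrays were marked by Dixon's ratio, the gap of the highest or lowest array to its nearest neighbor over the range of its group, which chance puts past its limit in about 1 in 20 groups. This held for 4 of 36 groups of member values and 2 of 48 groups of marker levels. Scn4a in AR113Q-NCD replicate 4 had a ratio of 0.753 (level 0.91, against 1.24 to 1.34 in the rest of its group). Kcnj2 in CTR-NCD replicate 3 had 0.832 (-2.11, against -2.36 to -2.32). Atp1b1 in AR113Q-HFD replicate 3 had 0.717 (2.43, against 3.41 to 3.81), on an array whose slow fiber level (7.10) is the lowest of its group. Atp1b2 in CTR-NCD replicate 1 had 0.782 (1.93, against 3.72 to 4.21). The summed Schwann cell level had 0.744 in CTR-NCD replicate 5 (2.47, against 2.89 to 3.03) and 0.749 in AR113Q-NCD replicate 3 (3.31, against 3.14 to 3.18). The causes were not tested.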

How the results depend on the processing

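Of 1466 member values under alternative settings, 1443 kept their direction and side of the threshold or moved by less than the spread between arrays, 9 lost a call, 5 gained one, 9 moved by more and 0 called values changed direction. For uncalled values the sign changed 50 times.

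The number of probes called on the NCD, 5625, became 2388 with median centring, 818 with normexp correction, 1387 with the fold rule and 3128 at an adjusted p under 0.01, and 4554 to 6063 with an array left out. The count of member probes, 4, became 2 with median centring, 1 with normexp and 2 with the fold rule, and was 4 to 4 with an array left out.

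On the HFD the 5741 probes became 2454 with median centring, 933 with normexp, 8960 with slide as a fixed block, 3471 with only those groups fitted, 1521 with the fold rule and 3291 at an adjusted p under 0.01, and 4603 to 5964 with an array left out. The 2 member probes became 0 with median centring, 0 with normexp, 1 in the authors' values, which lack the other Kcnj11 probe, and 0 with the fold rule. Leaving out an array gave 2 to 4, the 4 without CTR-HFD replicate 3.

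For the diet in AR113Q mice the 8 probes became 5 with median centring, 0 with normexp, 2 with slide as a fixed block, 15 with slide as a random block, 2 with the replicate block, 13 with array weights, 13 with an intensity trend, 1 with only those groups fitted and 2 at an adjusted p under 0.01. Leaving out an array gave 0 to 13, with 0 without AR113Q-NCD replicate 5 or AR113Q-HFD replicate 4 and 13 without CTR-HFD replicate 1. For the diet in wild-type mice there were 0 to 1, the 1 without CTR-NCD replicate 5, and for the interaction 0 to 0. With the replicate block the genotype counts were 7209 and 6988, with 4 and 2 member probes. The cause was not tested. The interaction cannot be fitted with only some of the groups.

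Signal over background limits the second Kcnn3 probe, which was above background on 16 of 19 arrays. Slide as a random block had a consensus correlation of 0.239, and array weights ran from 0.538 (CTR-HFD replicate 3) to 1.59 (AR113Q-NCD replicate 3).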
